A study of Mus musculus with 6 samples.

Results

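The calcium release complex of heart muscle was described through 10 genes of 20254 in the deposited table: Trdn, Asph, Casq1, Casq2, Hrc, Ryr2, Fkbp1a, Fkbp1b, Sri and S100a1. They were chosen by name, as the genes of triadin, junctin, the calsequestrins, the histidine-rich calcium-binding protein, the cardiac ryanodine receptor and its direct regulators, and all 10 were found. RNA sequencing was made from 6 mouse hearts, 3 labelled as knockout (KO) of Trdn-as and 3 labelled wild type (WT). In each genotype replicates 1 and 2 were taken at 14 months of age and replicate 3 at 5 months, so that the older age has 2 hearts per genotype and the younger age 1. All groups share the C57BL/6 strain, and the labels give neither the sex of the mice nor how Trdn-as was removed. The labels do not say whether a library holds 1 heart or a pool, so p-values measure only the spread between these libraries. As the hearts were sequenced whole, fewer cells of a type and less RNA per cell cannot be told apart in any difference given here.

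In each heartbeat calcium entering through the surface membrane opens ryanodine receptors in the sarcoplasmic reticulum, which then release the stored calcium. Triadin and junctin are membrane proteins of that store which tie the calcium-binding protein calsequestrin to the ryanodine receptor. In humans, variants in the genes of the cardiac ryanodine receptor, calsequestrin and triadin cause catecholaminergic polymorphic ventricular tachycardia, an inherited arrhythmia.

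Trdn (ENSMUSG00000019787) lies on the plus strand at chr10:33080554-33476709 (mm10), and its longest annotated coding transcript, Trdn-201, has 38 exons and 693 codons. D830005E20Rik, a gene annotated as antisense on the minus strand at chr10:33222345-33256418, lies within it, and its exons overlap 0 bases of Trdn exons. Its exons stand on both sides of exon 10 of Trdn-201, between exon 9 (which starts 119.609 kb from the start of Trdn) and exon 11 (which starts 176.521 kb from it). It was not analysed here, and the labels do not say whether it is Trdn-as, so the knockout labels were not checked against the targeted RNA. Shorter annotated coding transcripts end in this same stretch: Trdn-202 (293 codons) reads on past exon 9, and Trdn-207 (305 codons) leaves out exon 9 and reads on past exon 10. The lines that follow show where the annotated coding sequences part, because the table gives 1 summed value for the gene and does not separate them. Each starts with the last 30 bases of exon 8 and runs 5′ to 3′ through the spliced coding sequence (GENCODE M21, mm10, plus strand), for Trdn-201 to the end of exon 10 and for the others to the last coding base. Capitals mark the coding bases that Trdn-201 does not use, 32 in Trdn-202 and 56 in Trdn-207.
Trdn-201, chr10:33196096-33233926: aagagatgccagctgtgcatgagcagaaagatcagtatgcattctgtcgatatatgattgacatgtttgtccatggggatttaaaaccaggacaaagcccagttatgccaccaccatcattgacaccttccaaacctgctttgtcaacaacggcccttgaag
Trdn-202, chr10:33196096-33200254: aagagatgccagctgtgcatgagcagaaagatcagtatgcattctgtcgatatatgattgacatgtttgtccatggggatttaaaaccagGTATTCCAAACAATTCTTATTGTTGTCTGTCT
Trdn-207, chr10:33196096-33233982: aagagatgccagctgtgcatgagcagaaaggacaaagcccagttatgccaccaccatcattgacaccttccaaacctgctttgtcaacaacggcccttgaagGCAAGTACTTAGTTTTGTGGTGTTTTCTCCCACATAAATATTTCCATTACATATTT
The bases in lower case are shared with Trdn-201. Trdn-202 therefore differs from it at the end of exon 9, and Trdn-207 differs both by the absence of exon 9 and at the end of exon 10.

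**Figure D1:**
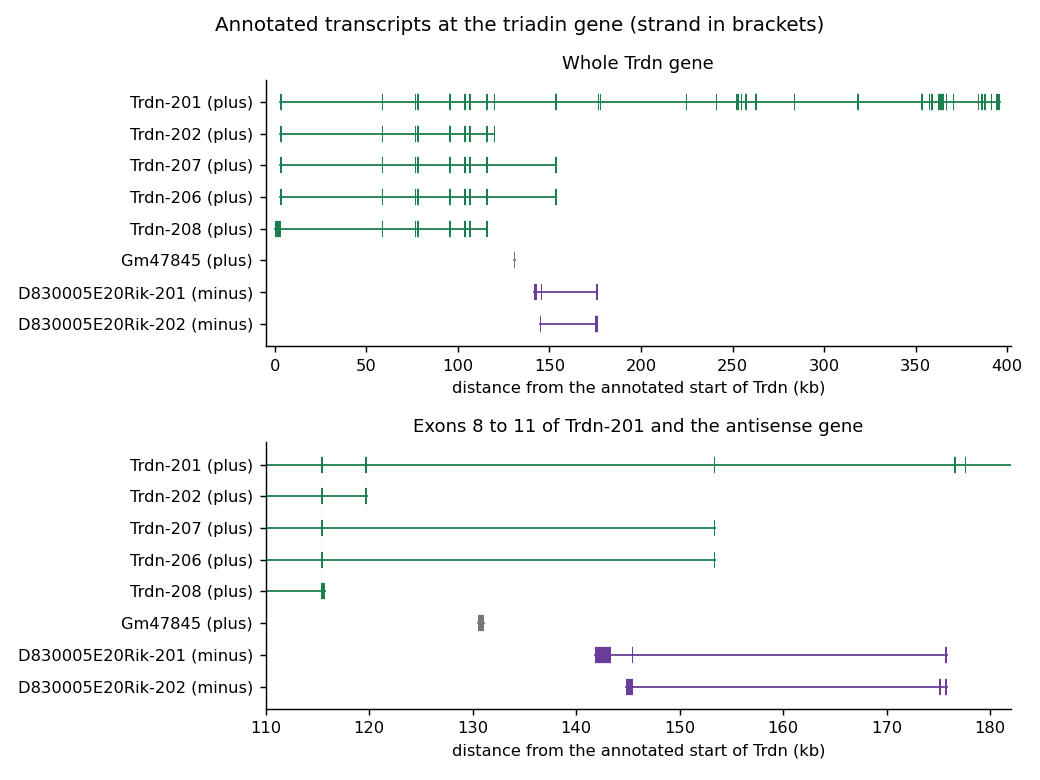
Annotated transcripts at the Trdn gene, drawn to scale by distance in kb from the annotated start of Trdn; boxes are exons, lines are introns, and the strand is given in brackets. The upper panel shows the whole gene and the lower panel the stretch from exon 8 to exon 11, where Trdn-202 and Trdn-207 end and where the exons of the antisense gene D830005E20Rik lie on both sides of exon 10.

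The libraries were not alike in ways that bear on these genes. Mitochondrially encoded genes took 44.3 to 49.4% of the normalized total in the 14-month libraries and 40.0 to 41.6% in the 5-month libraries. The summed value of 10 cardiomyocyte markers was 610695, 703915 and 733202 in KO replicates 1 to 3, and 647844, 689691 and 1239049 in WT replicates 1 to 3. By this sum WT replicate 3, at 5 months, stood far above the rest, with Myh6 alone at 400427 there. Actc1, Actn2, Ttn and Mybpc3 were not highest in that heart. The markers differed with age as well: 6 of 10 were lower at 14 months in the limma fit and 4 did not pass. Under quantile normalization 3 were lower, 3 higher and 4 did not pass. Summed values of 4 Y-linked genes were 82.2 in KO replicate 2 and 54.9 in WT replicate 2 against 2496 to 4482 in the other libraries, so replicate 2 read as female in both genotypes. The other libraries, both 5-month hearts among them, read as male. Apparent sex was thus not balanced between the ages, and its part in the age differences was not tested. The alternative with replicates 1 and 3 alone holds only libraries that read as male. Markers of skeletal muscle, which shares triadin and Casq1 with heart, were low in all libraries. Of 9 listed, 8 were in the table, their sum lay between 161 and 206 in KO and between 189 and 288 in WT, and Myh1, Myh2, Tnnc2 and Actn3 were listed at 0 in at least 1 library.

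Triadin RNA was lower in the KO heart than in the WT heart of every replicate number. The normalized value of Trdn was 3429, 3460 and 5606 in KO replicates 1 to 3, and 5702, 5600 and 9104 in WT replicates 1 to 3. At 14 months both KO hearts lay below both WT hearts, as they did for 17.9% of tested genes, and so did the 5-month KO heart against the 5-month WT heart, but the 5-month KO heart reached the level of the 14-month WT hearts. KO was therefore 60.1%, 61.8% and 61.6% of the WT library of the same number. The limma fit with age as a covariate gave a KO minus WT difference of −0.71 log2 (SE 0.10), or 61.2% of WT with a 95% interval of 51.9 to 72.1%. Over the 13823 genes tested this did not pass the threshold of 0.05 (limma adjusted p = 0.261). No gene passed in that comparison (0.0% called by limma, and 0 genes by limma-voom), although 841 had an unadjusted p under 0.05 and the smallest adjusted p was 0.226. The size of the Trdn difference varied with the scaling. It was −0.60 under quantile normalization (limma adjusted p = 0.481) and −0.77 with the length trend removed (0.136). With scaling without mitochondrially encoded genes it was −0.60 (limma adjusted p = 0.545), or −0.68 relative to the median of all genes. Permuting the genotype labels over all 6 hearts gave an exact two-sided permutation p of 0.2; with 3 against 3 the lowest attainable value is 0.1. With labels exchanged only within an age, the exact two-sided p was 0.167, the smallest that 12 arrangements allow. Of the cardiomyocyte markers 9 of 10 were also below WT in KO, with a median of −0.29 log2 and 0 called (limma; 0 with an unadjusted p under 0.05), and their part in the Trdn difference was not tested. For comparison, 14.6% of tested genes were lower in KO in each of the 3 replicate numbers. In the 14-month libraries alone the difference was again −0.71, and there Trdn passed (limma adjusted p = 0.0476; 0.101% of genes called), but with genes filtered on those 4 libraries it did not (limma adjusted p = 0.0654).

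Triadin RNA was also lower in the older hearts. The same 6 values average 4548 ± 1275 at 14 months (SD, n = 4) and 7355 at 5 months (n = 2). Trdn fell at 14 months relative to 5 months by 0.70 on the log2 scale (SE 0.11, limma adjusted p = 0.00283, genotype in the fit), which is 61.8% of the younger level (95% interval 51.9 to 73.5%). The age difference was −0.70 in KO and −0.69 in WT. The 5-month side rests on 1 heart of each genotype. Under quantile normalization the difference was −0.39 (limma adjusted p = 0.0304), and without the genotype covariate it was −0.70 and did not pass (limma adjusted p = 0.0829).

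**Figure D2:**
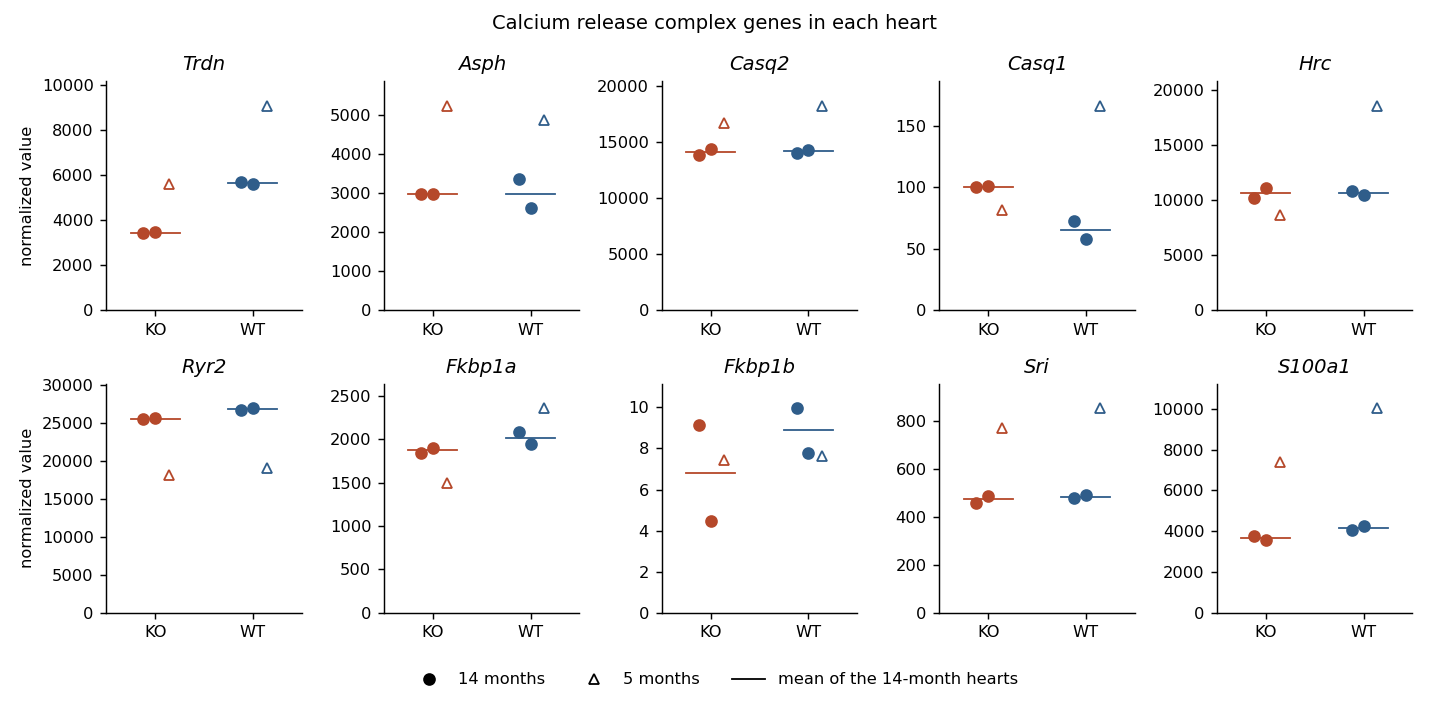
Normalized value of each of the 10 genes in each heart, on linear axes that start at 0, with KO left of WT; filled circles are 14-month hearts, open triangles 5-month hearts, and lines the mean of the 14-month hearts of a genotype. Trdn stands at 3429 and 3460 in 14-month KO hearts against 5702 and 5600 in 14-month WT hearts, while Hrc and Casq1 differ most in the 5-month WT heart.

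Within each heart, triadin RNA was set against its partners as a ratio that does not depend on the scaling factor of a library. Quantile normalization and removal of the length trend are not a single factor per library and can change such a ratio. Trdn was 24.7%, 24.0% and 33.7% of the Casq2 value in KO replicates 1 to 3, and 40.6%, 39.3% and 49.9% in WT replicates 1 to 3. It was 115%, 116% and 107% of the Asph value in the KO hearts, and 169%, 214% and 187% in the WT hearts. For both partners every KO heart lay below every WT heart, with mean differences of −0.66 log2 to Casq2 and −0.75 log2 to Asph. Each gave an exact two-sided permutation p of 0.1, the smallest possible here, and 0.2 after Benjamini-Hochberg adjustment over the 4 ratios computed. All 4 ratios carry the same Trdn value, and Casq2 and Asph themselves differed by −0.05 and 0.04 log2 between genotypes. The separation therefore restates the Trdn difference and is no result about these partners. How many other genes would separate the genotypes in a ratio to Trdn was not computed.
Against Ryr2 and Hrc the groups overlapped. Trdn was 13.4%, 13.5% and 30.9% of the Ryr2 value in KO and 21.3%, 20.8% and 47.8% in WT (mean difference −0.64 log2, exact two-sided permutation p = 0.3). Within replicates 1 to 3, KO minus WT was −0.67, −0.62 and −0.63 log2 for this ratio. With labels exchanged only within an age, its exact two-sided permutation p was 0.167, the smallest possible. The ratios to Casq2 and Asph gave the same within-age value. Trdn was 33.5%, 31.2% and 64.4% of the Hrc value in KO and 52.5%, 53.4% and 48.9% in WT (mean difference −0.34 log2, exact two-sided permutation p = 0.4). Here KO minus WT was −0.65 and −0.78 log2 in replicates 1 and 2 but 0.40 in replicate 3 (exact two-sided permutation p within age = 0.333). The ratio to Ryr2 was lower in the 14-month hearts of both genotypes, by 1.19 log2 on average, while that to Asph differed between ages by 0.07 log2.

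**Figure D3:**
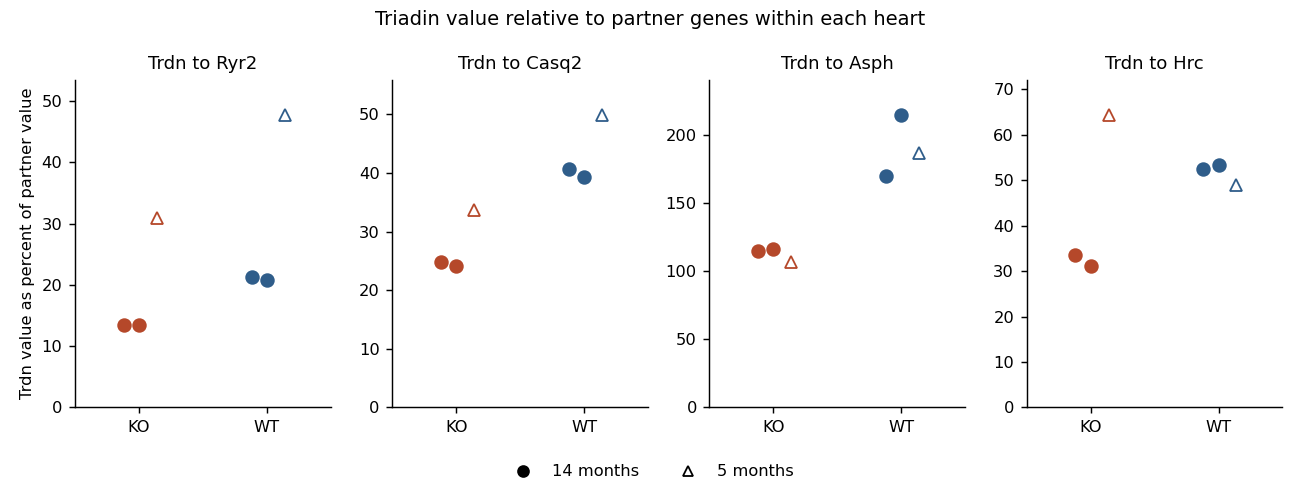
Trdn value as a percent of the value of Ryr2, Casq2, Asph and Hrc within each heart, on axes that start at 0; KO stands left of WT, filled circles are 14-month and open triangles 5-month hearts. The KO hearts lie below the WT hearts without overlap for Casq2 (24.0 to 33.7% against 39.3 to 49.9%) and Asph (107 to 116% against 169 to 214%). Each ratio carries the same Trdn value.

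Asph (ENSMUSG00000028207, minus strand, chr4:9448069-9669344) encodes junctin, the close relative of triadin, but also aspartyl beta-hydroxylase and junctate, and the gene value does not separate them. Its exons also overlap those of Clvs1 on the other strand. Asph was 2983, 2982 and 5250 in KO replicates 1 to 3, and 3364, 2611 and 4881 in WT replicates 1 to 3. The genotypes overlapped at 14 months, and all 14-month hearts were lower than both 5-month hearts, as for 25.0% of tested genes. KO minus WT was 0.04 log2 (SE 0.13, 95% interval −0.25 to 0.33, limma adjusted p = 0.935). With age the gene moved as Trdn did: it fell at 14 months by 0.77 log2 (SE 0.13, limma adjusted p = 0.00430), to 58.7% of the 5-month level.

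The calsequestrins are the high-capacity calcium buffers of the store, Casq2 being the cardiac form and Casq1 the form of fast skeletal muscle. Casq2 (ENSMUSG00000027861, plus strand, chr3:102086415-102146514) was 13864, 14386 and 16657 in KO, and 14044, 14255 and 18238 in WT, in replicate order. The genotypes overlapped at 14 months and differed by −0.05 log2 (SE 0.11, 95% interval −0.30 to 0.21, limma adjusted p = 0.914). All 14-month hearts lay below both 5-month hearts, yet the age difference of −0.30 (SE 0.12) missed the threshold (limma adjusted p = 0.0823). Ages did not overlap for 50.7% of tested genes.
Casq1 (ENSMUSG00000007122, minus strand, chr1:172209894-172219868) shares exon bases with Gm17224, an antisense gene, and was far less abundant. Its values were 99.7, 101 and 81.6 in KO and 72.7, 57.9 and 166 in WT. The KO hearts were above the WT hearts at 14 months, as for 17.2% of tested genes, and the KO heart was below the WT heart at 5 months, so that the fitted difference of 0.07 log2 (SE 0.33, limma adjusted p = 0.956) averages opposite directions. The difference between these 2 genotype differences was 1.64 log2 (SE 0.37) and did not pass (limma adjusted p = 0.0710). Per kb of the longest coding transcript, Casq2 exceeded Casq1 by 100, 103 and 147 times in KO and 140, 178 and 79.3 times in WT.

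Hrc (ENSMUSG00000038239, plus strand, chr7:45335290-45338974) encodes the histidine-rich calcium-binding protein of the store, which binds triadin and the calcium pump. Its values were 10241, 11101 and 8703 in KO replicates 1 to 3, and 10858, 10479 and 18626 in WT replicates 1 to 3. At 14 months the genotypes overlapped, whereas at 5 months the KO heart was the lowest and the WT heart the highest of all. The KO minus WT difference was −0.08 and 0.08 log2 at 14 months and −1.10 at 5 months, with a pooled −0.37 (SE 0.21, limma adjusted p = 0.745). The interaction of genotype and age, coded as the KO minus WT difference of the older hearts less that of the younger ones, came to 1.10 log2 with an SE of 0.14. It passed (limma adjusted p = 0.0293), as did 2.08% of tested genes. The call rests on 1 KO and 1 WT heart at 5 months, and was lost without WT replicate 1 (limma adjusted p = 0.0789) or WT replicate 2 (limma adjusted p = 0.0985). It was also lost without the filter on low values (limma adjusted p = 0.126), with quantile normalization (0.0511), without limma's trend and robust options (0.180) and with limma-voom (0.0535). Genes called for the interaction numbered 287 here and 4 to 750 over the alternatives. Most marker lists had interactions of the same sign: 9 of 10 cardiomyocyte markers (2 called, Myh6 and Actc1), 6 of 6 fibroblast markers (1 called, Col3a1), 6 of 6 adipocyte markers (2 called, Cfd and Cidea), 4 of 4 smooth muscle markers, 4 of 4 macrophage markers and 5 of 5 atrial markers. Under quantile normalization these counts were 7, 6, 6, 4, 4 and 3, with 0 called. The summed cardiomyocyte value was 733202 in the 5-month KO heart and 1239049 in the 5-month WT heart, and that of the fibroblast markers 10930 in the 5-month KO heart and 16962 in the 5-month WT heart. Their part in the Hrc result was not tested. With age Hrc differed by −0.26 log2 (SE 0.23, limma adjusted p = 0.414), 0.29 in KO and −0.80 in WT.

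Ryr2 (ENSMUSG00000021313, minus strand, chr13:11553102-12106945), the calcium release channel of heart muscle, moved opposite to triadin with age. It was 25542, 25579 and 18150 in KO, and 26722, 26920 and 19053 in WT, in replicate order. All 14-month hearts lay above both 5-month hearts, as for 25.7% of tested genes. At each age KO was slightly under WT, by 0.07 log2 in each replicate number, and 14.6% of tested genes were lower in KO in each number. Both 14-month KO hearts lay below both 14-month WT hearts, as for 17.9% of tested genes. Ryr2 rose at 14 months to 140.8% of the 5-month level (95% interval 117 to 170%), a difference of 0.49 log2 (SE 0.12, limma adjusted p = 0.0153) that was 0.49 in both genotypes. Without any of KO replicate 1, KO replicate 2, WT replicate 1 or WT replicate 2 in turn, the difference remained at 0.49 to 0.50 but missed the threshold (limma adjusted p = 0.0505 to 0.0626). KO minus WT was −0.07 (SE 0.11, 95% interval −0.33 to 0.19, limma adjusted p = 0.867), and its sign turned under quantile normalization (0.14) and when libraries were scaled without mitochondrially encoded genes (0.04). Under the latter scaling it stayed at −0.04 relative to the median of all genes.

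The immunophilins Fkbp1a and Fkbp1b encode small proteins that bind the ryanodine receptor and stabilise its closed state. Fkbp1a (ENSMUSG00000032966, plus strand, chr2:151542483-151561692) was 1845, 1896 and 1500 in KO, and 2081, 1942 and 2357 in WT, in replicate order. Every KO heart was below every WT heart, which was so for 2.89% of tested genes. The difference of −0.29 log2 (SE 0.14) did not pass (limma adjusted p = 0.745; exact two-sided permutation p = 0.1, the smallest possible). It was −0.17 and −0.03 at 14 months and −0.65 at 5 months, and the test of that change gave 0.55 (SE 0.15, limma adjusted p = 0.104). Between ages Fkbp1a differed by 0.04 (SE 0.15, limma adjusted p = 0.835). The annotation holds 3 processed pseudogenes of Fkbp1a, none of them in the table, and reads shared with them cannot be told apart.
Fkbp1b (ENSMUSG00000020635, minus strand, chr12:4833174-4841591), the form known for tight binding to the cardiac channel, was near the lower end of the table. It had 9.15, 4.46 and 7.43 in KO and 9.96, 7.80 and 7.66 in WT, values that overlap. It stayed under the value of 10 required in 3 libraries and was not tested. Fkbp1a exceeded it, per kb, by 119, 251 and 119 times in KO and 123, 147 and 181 times in WT.

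Sri and S100a1 encode calcium-binding proteins of the EF-hand type that act on the receptor from the cytosol, sorcin as an inhibitor and S100A1 as an enhancer of release. Sri (ENSMUSG00000003161, plus strand, chr5:8046078-8069379) was 460, 488 and 772 in KO, and 479, 492 and 854 in WT, in replicate order. The 14-month hearts stood close together and below both 5-month hearts, as for 25.0% of tested genes. Sri fell at 14 months by 0.76 log2 (SE 0.12, limma adjusted p = 0.00267), to 59.1% of the 5-month level, while KO minus WT was −0.07 (SE 0.11, 95% interval −0.33 to 0.18, limma adjusted p = 0.861).
S100a1 (ENSMUSG00000044080, minus strand, chr3:90511034-90514392) was 3755, 3573 and 7392 in KO, and 4042, 4250 and 10028 in WT. At both ages KO was under WT. Both 14-month KO hearts lay below both 14-month WT hearts, as for 17.9% of tested genes, and KO was lower in each replicate number, as for 14.6%. All 14-month hearts were under both 5-month hearts, again as for 25.0% of tested genes. S100a1 fell at 14 months by 1.14 log2 (SE 0.12, limma adjusted p = 7.12e-04), to 45.3% of the 5-month level (95% interval 37.4 to 54.8%). Its longest coding transcript has 677 bases, and tested genes with under 1000 bases of exon had a median age difference of −0.49. With the trend of differences over gene length removed in each library, S100a1 still fell, by 0.41 (limma adjusted p = 0.0155). KO was 92.9%, 84.1% and 73.7% of the WT library of the same number, a difference of −0.27 (SE 0.11) with an unadjusted limma p of 0.0465 that did not pass over all genes (limma adjusted p = 0.745).

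Counted together, 0 of the 9 tested members passed in KO against WT (limma), and 2 of them, Trdn and S100a1, had an unadjusted p under 0.05. KO was above WT for 2 members and below for 7, a split that was 4 and 5 under quantile normalization and 5 and 4 with scaling without mitochondrially encoded genes. That last scaling moved the median of all genes by 0.10 in this comparison, and relative to that median the split was again 2 and 7. The median difference of the members was −0.07 log2, beside −0.02 over all genes tested. Of the cardiomyocyte markers 9 of 10 stood below WT in KO (7 of 10 under quantile normalization), with a median of −0.29, as did 5 of 5 atrial markers and 6 of 6 fibroblast markers (5 of 6 with scaling without mitochondrially encoded genes). None of these passed in limma (0, 0 and 1 with an unadjusted p under 0.05). Adipocyte markers went the other way, 6 of 6 above WT in KO with a median of 0.71 and 0 called. Erythroid (5 of 5), macrophage (4 of 4) and endothelial markers (4 of 5) stood below WT, and smooth muscle markers were split 2 and 2, again with 0 called. The part of all these markers in the members' differences was not tested. With age the members differed more. At 14 months 1 rose (Ryr2), 4 fell (Trdn, Asph, Sri and S100a1) and 4 did not pass (Casq1, Casq2, Hrc and Fkbp1a), with a median of −0.53 log2 beside 0.02 over all genes. Of all genes tested 33.7% were called with age, 17.7% higher and 16.0% lower, so calls in this comparison were common. The same 5 members passed under quantile normalization, upper-quartile rescaling, scaling without mitochondrially encoded genes and removal of the length trend. Scaling without mitochondrially encoded genes moved the median of all genes by 0.20 in the age comparison, and relative to that median Trdn stood at −0.71 and Ryr2 at 0.47. Under that scaling 3403 of 4636 calls were higher at 14 months, against 2447 of 4663 with the values as deposited. Markers of several cell types moved with age as well. The median age difference was −0.78 for cardiomyocyte markers (−0.015 under quantile normalization) and −1.42 for atrial markers (4 of 5 lower), but 0.49 for fibroblast (2 of 6 higher), 0.75 for macrophage (2 of 4 higher) and 0.32 for endothelial markers (2 of 5 higher, 1 lower). Their part in the members' age differences was not tested.

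**Figure D4:**
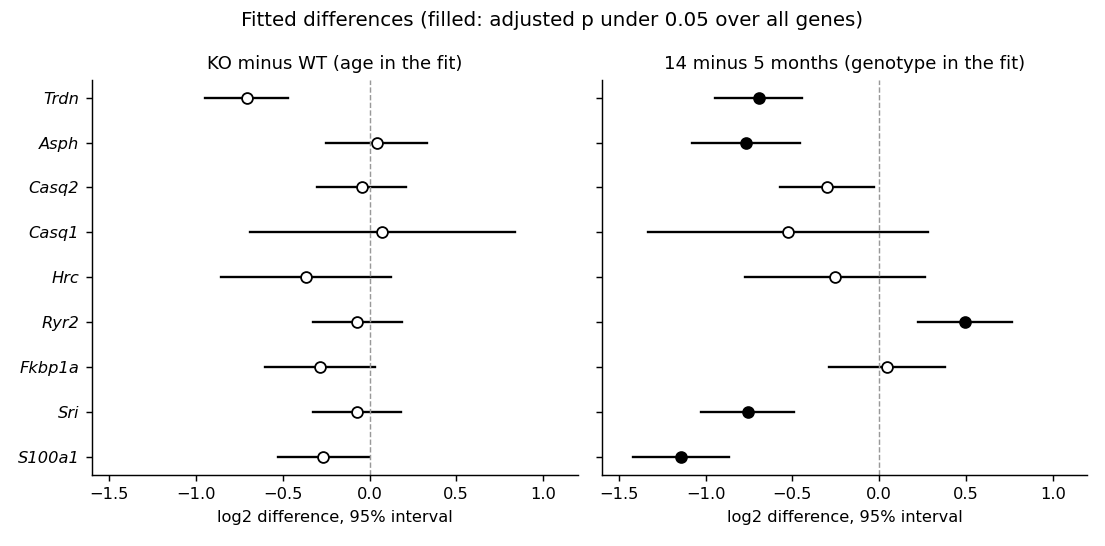
Fitted log2 differences of the 9 tested members with 95% intervals, KO minus WT with age in the fit (left) and 14 minus 5 months with genotype in the fit (right); filled points have a limma adjusted p under 0.05 over all 13823 genes. No point is filled for genotype, where Trdn at −0.71 lies farthest from 0. The signs of Casq2, Ryr2 and Sri turn there under another scaling, and that of Asph with the length trend removed. Relative to the median of all genes the sign of Sri does not turn. For age 5 points are filled, Ryr2 to the right and Trdn, Asph, Sri and S100a1 to the left.

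Levels of different genes were compared per kb of the longest annotated coding transcript, because the deposited values are not per length. The mean normalized value per kb was 8134 for S100a1, 5963 for Casq2 and 4839 for Hrc. The ranges over the 6 hearts of these 3 overlapped, at 5277 to 14813, 5424 to 7135 and 3610 to 7725. Ryr2 (1407), Trdn (1215) and Fkbp1a (1168) followed, and their ranges overlapped as well, at 1079 to 1601, 760 to 2017 and 905 to 1422. Asph had a mean of 550 per kb with a range of 390 to 784 that overlapped the Trdn values of the 14-month KO hearts. Sri (236), Casq1 (52.2) and Fkbp1b (7.93) lay below, each without overlap with the gene before it. The order was the same with the merged length of all exons. With the median length of the coding transcripts Hrc came before Casq2, Trdn before Ryr2 and Asph before Fkbp1a. Which isoform the hearts used is not known from a gene-level table, so these places are uncertain: annotated coding transcripts span 356 to 4514 bases for Trdn, 1106 to 16814 for Ryr2 and 457 to 6694 for Asph.

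**Figure D5:**
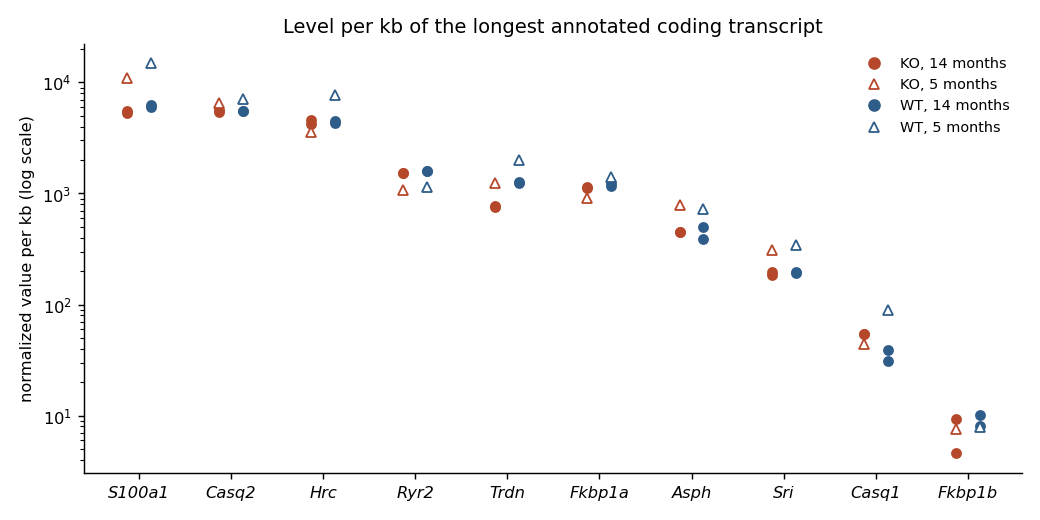
Normalized value per kb of the longest annotated coding transcript in each heart, on a log axis, with genes ordered by their mean and KO drawn left of WT; filled circles are 14-month and open triangles 5-month hearts. Means run from 8134 for S100a1 to 7.93 for Fkbp1b, and the KO points of Trdn lie below the WT points of the same age.

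The genes whose log2 values were most like those of Trdn over the 6 libraries were Dbndd2 (Pearson r = 0.989), Hebp1 (0.985), the processed pseudogene Llph-ps2 (0.983), Efcab7 (0.978) and Sult1a1 (0.977). These libraries share their genotype and age structure, and the correlations are given as a description. Among the members r was 0.827 for S100a1, 0.763 for Casq2, 0.744 for Sri, 0.630 for Hrc, 0.614 for Asph, 0.461 for Fkbp1a, 0.298 for Casq1 and −0.56 for Ryr2. Thus no other member was among the closest: S100a1 came at place 673.

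At the Trdn locus the table also lists small genes inside it and the nearest genes on both sides. The processed pseudogene Gm47845, between exons 9 and 10 on the plus strand (chr10:33211085-33211632), was 2.94, 2.79 and 5.64 in KO, and 31.3, 25.4 and 15.0 in WT. Every KO library was below every WT library, as for 2.89% of tested genes. It reached the minimum value of 10 only in WT libraries and so entered the test through the genotype where it is high. The difference of −2.37 log2 (SE 0.50) did not pass (limma adjusted p = 0.745), and values this low carry counting error of their own. Gm47842, farther along on the minus strand, was 19.6, 23.5 and 66.4 in KO, and 29.8, 34.9 and 32.3 in WT, which overlap (−0.04 log2, SE 0.37, limma adjusted p = 0.979). Gm47844 and the flanking genes Nkain2 and Clvs2 did not reach the minimum and were not tested.

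A wider set of 21 genes for proteins that bind, modify or position the ryanodine receptor was then examined. Against WT, 12 were higher and 9 lower in KO, 0 passed (limma; 0 with an unadjusted p under 0.05), and the median was 0.04 log2. That split was 16 and 5 under quantile normalization and 17 and 4 with scaling without mitochondrially encoded genes. With age 4 were called higher and 4 lower, and 13 did not pass, with a median of 0.09 beside 0.02 over all genes. As 33.7% of all genes tested were called with age, this count is near the background, and the calls that follow say nothing particular to these genes as a set. Their directions depend on the scaling. Without mitochondrially encoded genes 7 were called higher and 2 lower, with a median of 0.29 beside 0.22 over all genes. Under that scaling most calls over all genes were higher as well. A catalytic and a regulatory subunit of protein kinase A, a kinase that phosphorylates the receptor, both rose at 14 months: Prkaca by 0.71 log2 (limma adjusted p = 0.00276) and Prkar2a by 0.89 (limma adjusted p = 0.00376). Ppp1r9b, whose product spinophilin brings protein phosphatase 1 to its targets, rose by 0.56 (limma adjusted p = 0.0155), whereas Ppp1cb, a catalytic subunit of that phosphatase, fell by 0.89 (limma adjusted p = 0.00231). Ryr1, the skeletal form of the channel, had 19.0 and 12.1 in 14-month KO hearts, 6.78 and 13.6 in 14-month WT hearts, 1.82 in the 5-month KO heart and 0.740 in the 5-month WT heart. It is counted among the 4 higher genes, but it reached the minimum value of 10 only in older hearts and so passed the filter through the age where it is high, and no support is taken from its call. Calm2, which encodes calmodulin, fell by 0.71 (limma adjusted p = 0.00440), the counter-ion channel gene Tmem38b by 0.52 (limma adjusted p = 0.0197), and the phosphatase subunit gene Ppp2r3a by 0.40 (limma adjusted p = 0.0328). Cmya5, which helps to hold the release sites in place, was the most abundant of the set at a mean of 14873, with KO minus WT at 0.08 and an age difference of 0.09, neither past the threshold.

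Of 13 genes for calcium entry, uptake and removal, 7 were above and 6 below WT in KO, 0 passed (limma; 0 with an unadjusted p under 0.05), and the median was 0.09 log2. With age 3 rose, 1 fell and 9 did not pass, with a median of 0.20. This count, too, is near the 33.7% called among all genes and is no result about the set. It depends on the scaling: under quantile normalization 7 were called higher and 1 lower, and the share of all genes called under that scaling is not given here. The plasma membrane pump Atp2b4 rose by 0.71 log2 (limma adjusted p = 0.0315), the pump isoform Atp2a3 by 1.04 (limma adjusted p = 0.0101), and Calr, which encodes the calcium-binding chaperone calreticulin, by 0.65 (limma adjusted p = 0.0107). Sln, the gene of the pump inhibitor sarcolipin, fell by 1.72 (limma adjusted p = 7.30e-04). Sln is also an atrial marker, and the summed value of 5 atrial markers was 13402 to 26390 in 14-month hearts and 40360 to 63808 in 5-month hearts, whose part in this was not tested. The most abundant genes of the set did not pass in either comparison: for the cardiac pump Atp2a2 KO minus WT was −0.04 log2 and the age difference 0.41, for its inhibitor Pln −0.05 and −0.20, and for the sodium-calcium exchanger Slc8a1 0.13 and −0.09.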

How the data were processed

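Total RNA of frozen hearts (1 ug per library) was sequenced, per the labels' protocols. Salmon 1.5.2 and mm10 are named in the submitters' processing notes; how values were scaled is not given in the sources used here. What the authors deposited is a normalized signal per gene, not per length. Its values are not whole numbers, and 9.81 to 12.7% of low values lay at whole multiples of a library's step (tolerance 0.01 of a step, up to 20 steps), so reads could not be recovered and depth is unknown. Totals of the normalized values, in units of 1e6, were 19.8 to 21.6 in KO and 19.9 to 23.5 in WT.

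GENCODE M21 gave symbols and positions for 20122 of 20254 gene identifiers; 132 were unmatched and 108 lines without values were left out. No library was a duplicate: for any pair, the share of genes agreeing within 1% was 5.28% or less. A gene was tested if 3 or more libraries reached a value of 10 (13823 were, 6431 were not), with limma 3.58.1 in R 4.3.3 on log2(value + 1), trend and robust options, Benjamini-Hochberg adjustment over all genes tested and a threshold of 0.05. Genotype was tested with age as covariate and age with genotype as covariate (3 residual degrees of freedom each); their interaction left 2. Differences on this scale understate changes of low genes. Other differences were tested by exact two-sided permutation. The fit was tested on simulated data. Alternatives covered pseudocount, filter, scaling, fit options, covariates, gene length and leaving out each library.

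Replicate numbers are shared between genotypes in the labels, which state no pairing. Libraries of the same number correlated at 0.390, 0.383 and 0.617 after removal of the genotype mean, but at 14 months differently numbered ones reached 0.369 and 0.382, and within genotype and age the value was 0.0147.

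Named genes were all members, genes of the table overlapping or flanking Trdn, up to 4 called genes per direction and the 3 most abundant of each further list, and the 5 genes most like Trdn. The members and lists were chosen with earlier results of these data known.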

Additional observations from a re-analysis of the deposited data

Results flagged for a closer look

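Hrc was singled out because its genotype difference changed with age: the interaction, older less younger hearts, came to 1.10 log2 with an SE of 0.14 (limma adjusted p = 0.0293). The call was lost under 6 of 14 alternatives, with a limma adjusted p of up to 0.180. The 5-month side is 1 heart of each genotype, at 8703 in KO and 18626 in WT, and the 14-month hearts lay at 10241 and 11101 in KO and at 10858 and 10479 in WT. The same 5-month WT heart had the highest summed value of cardiomyocyte markers, 1239049, although Actc1, Actn2, Ttn and Mybpc3 were higher in another heart. Interactions of the same sign were seen in most marker lists, and their part in the result was not tested.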

How the results depend on the processing

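Of 517 recomputed values, 466 kept their direction and side of the threshold or stayed within the tolerance for counts, 16 counts moved, 12 values lost and 4 gained a call, and 19 turned sign. The replicate block left Trdn at −0.71 (limma adjusted p = 0.886) and called 0 genes and 0 members in KO against WT, so it changed no call. Genes called in KO against WT numbered 14 in the 14-month libraries alone, where 1 member passed, Trdn, and 39 with replicates 1 and 3 alone, a choice made after seeing the data; they ranged from 0 to 5 without a single library (5 without KO replicate 3 or WT replicate 3, 1 without WT replicate 2). The Trdn difference of −0.71 in the 14-month libraries had a limma adjusted p of 0.0476 (0.0654 with genes filtered on those libraries, added after seeing the data), within a range of 0.0476 to 1.0 over all alternatives.

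Genes called with age numbered 3011 with replicates 1 and 3 alone and 3246 to 4533 without a single library; members called were 4 to 8, with 8 without KO replicate 3, where Casq1 (−1.34), Casq2 (−0.37) and Hrc (−0.80) also passed. Trdn with age lost its call without the genotype covariate (−0.70, limma adjusted p = 0.0829). Ryr2 with age lost its call with replicates 1 and 3 alone (limma adjusted p = 0.247). Genes called for the interaction numbered 4 without the filter, 12 with quantile normalization, 750 with scaling without mitochondrially encoded genes, 7 without the trend and robust options, 5 with limma-voom, 149 with the length trend removed (chosen after seeing the data) and 13 to 234 without a single 14-month library (15 without WT replicate 1, 13 without WT replicate 2). The Hrc interaction lost its call without the filter (1.10, limma adjusted p = 0.126), with quantile normalization (0.82, 0.0511), without the trend and robust options (1.10, 0.180) and with limma-voom (1.10, 0.0535); without a single library it ranged from 1.04 to 1.16. The interaction cannot be computed without a 5-month library. Apart from the fits that leave out a 5-month library, age was not compared within a genotype, as each has 1 such library.

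Signs turned as follows. In KO against WT these were Casq2 with quantile normalization (0.10), without mitochondrially encoded genes (0.061) and without the length trend (0.0084); Ryr2 (0.14 and 0.036 in the first 2 of these); Sri without mitochondrially encoded genes (0.034); Casq1 with limma-voom (−0.026), with replicates 1 and 3 alone (−0.28) and without a library (−0.17 to 0.62); and Asph without the length trend (−0.044), with replicates 1 and 3 alone (−0.034) and without a library (−0.054 to 0.15). With age they were Hrc with quantile normalization (0.050) and without a library (−0.80 to 0.29), Fkbp1a (−0.23 to 0.32) and Casq1 (−1.34 to 0.29) without a library. The causes were not tested, except that leaving out libraries means fewer samples. Depth is unknown, and with 1 heart per genotype at 5 months the spread at that age cannot be measured on its own.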
